A study of Saccharomyces cerevisiae with 12 samples.

Results

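The 10 genes LEU4, LEU9, LEU1, OAC1, ILV1, ILV2, ILV6, ILV5, ILV3 and BAT1 encode enzymes and 1 carrier of leucine, isoleucine and valine synthesis in budding yeast. They were taken by systematic identifier from tables of 7445 entries for early cultures and 7555 entries for late cultures, and all 10 were in both and passed the filter on low values, among 6124 genes tested early and 5344 tested late. RNA was sequenced from Saccharomyces cerevisiae BY4742 grown in synthetic dextrose complete medium, as early cultures given NaHS, early untreated controls, late cultures given NaHS and late untreated controls, with 3 libraries in each of the 4 groups. NaHS is a donor of hydrogen sulfide, and early and late mean treatment before and after 72 h from inoculation. Its dose is not given in the labels, nor whether libraries within a group were grown apart, so each p covers only the spread between these libraries. The genes were listed by their place in the pathway with earlier results of both comparisons known, among them the late values of LEU1 and BAT1. Their late changes are therefore given as a description with no p. Their early changes carry the adjusted p of the fit to all genes, which sets each change against the spread between libraries and is no independent evidence about a list chosen with these data known.

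Leucine, isoleucine and valine are the branched-chain amino acids, and yeast makes them in mitochondria with shared enzymes. Ilv1 opens the isoleucine route, and acetolactate synthase, the reductoisomerase Ilv5 and the dehydratase Ilv3 then serve both isoleucine and valine. Leucine branches off when Leu4 or Leu9 makes isopropylmalate, which the carrier Oac1 moves to the cytosol for Leu1 and Leu2, and isopropylmalate also switches on the regulator Leu3. BY4742 is a haploid laboratory strain of mating type alpha with deletions in HIS3, LEU2, LYS2 and URA3, shared by all 4 groups, so it cannot finish leucine synthesis and lives on leucine from the medium. LEU2 was listed at 0 in all 12 libraries.

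Stretches before the start codons of BAT1, LEU1, ILV5 and ILV2 are shown because they hold the core letters bound by Leu3, and 3 of them also hold letters bound by Gcn4, the activator of general amino acid control. Capitals mark the Leu3 core, CCGG followed by 2 bases of any kind and CCGG, which reads the same on both strands, and the Gcn4 core TGACTC or its other strand GAGTCA. The sequences are RefSeq's, build R64, written along the strand of the gene.
BAT1: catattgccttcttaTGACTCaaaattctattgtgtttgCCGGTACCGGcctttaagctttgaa
LEU1: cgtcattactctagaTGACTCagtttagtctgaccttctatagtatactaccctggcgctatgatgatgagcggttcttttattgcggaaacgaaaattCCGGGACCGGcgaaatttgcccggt
ILV5: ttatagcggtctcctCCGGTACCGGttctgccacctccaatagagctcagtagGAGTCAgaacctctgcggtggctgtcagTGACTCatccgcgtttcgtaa
ILV2: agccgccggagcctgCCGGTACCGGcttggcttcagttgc

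These stretches lie at chrVIII:517346-517409 on the plus strand for BAT1, chrVII:478845-478968 on the minus strand for LEU1, chrXII:839544-839645 on the minus strand for ILV5 and chrXIII:483601-483640 on the plus strand for ILV2. The Leu3 core began 147 bases before the start codon of BAT1, 217 before that of LEU1, 377 before that of ILV5 and 468 before that of ILV2. Within 500 bases of the start codon, 4 of the 10 genes held this core, against 16 of 6000 promoters of that length (0.267%). The Gcn4 core was in 9 of the 10, all but ILV2, against 759 of 6000 promoters (12.7%). ILV5 held 3 copies of it, the last 140 bases before the start codon, and the other 8 genes held 1 each, between 101 bases (LEU4) and 332 bases (OAC1) before it. A match is only a match of letters in this window, and no binding was measured. Among the 11 tested genes outside the pathway list that held the Leu3 core, 1 fell and 3 rose in early cultures by limma adjusted p. In late cultures 3 of them fell and 0 rose. Of such genes without the core, 29.6% fell early and 10.2% fell late, while 565 of 5520 rose early and 271 of 4851 rose late. The median log2 change was -0.26 early with the core, against -0.24 without it, and -0.28 late with the core, against 0.065 without it.

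Early values are TPM and late values are FPKM, both of which correct for gene length and for the size of the library. The tables were made separately, so levels are compared within a table only. In early controls LEU4, the main isopropylmalate synthase, was the highest of the 10 with 3078 to 3184 TPM and ranked 42 among 6124 genes tested. ILV6, ILV3 and ILV5 followed without overlap between neighbours, at 1854 to 1919, 1246 to 1444 and 879 to 1135 TPM. BAT1, ILV2, LEU1 and ILV1 lay lower in that order, again without overlap, while OAC1 (41.3 to 48.7 TPM) and LEU9 (33.3 to 44.0 TPM) overlapped at the bottom.

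The late controls had another order, led by BAT1, the mitochondrial aminotransferase that makes the final amino acids, at 5459 to 8933 FPKM and rank 44 of 5344. BAT1 overlapped with ILV3, ILV3 with ILV5 and ILV5 with ILV6, over the 3 libraries. Within each late control, however, BAT1 was above ILV3 and ILV5 above ILV6, while ILV3 was above ILV5 in 2 of 3. In a lower tier between 531 and 1414 FPKM, LEU4 overlapped with OAC1, OAC1 with ILV2 and ILV2 with LEU1, and LEU4 lay wholly above ILV2 and LEU1. ILV1 and LEU9 were lowest, at 304 to 457 and 209 to 265 FPKM.

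Summed over the 10 genes, the pathway took 0.532%, 0.573% and 0.340% of the table total in early NaHS libraries, against 0.827%, 0.830% and 0.901% in early controls. In late cultures it took 0.294%, 0.227% and 0.263% in NaHS libraries, against 1.24%, 1.26% and 1.44% in controls. The groups did not overlap at either stage. In bulk RNA, fewer cells of a type and less RNA per cell cannot be told apart.

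**Figure D1:**
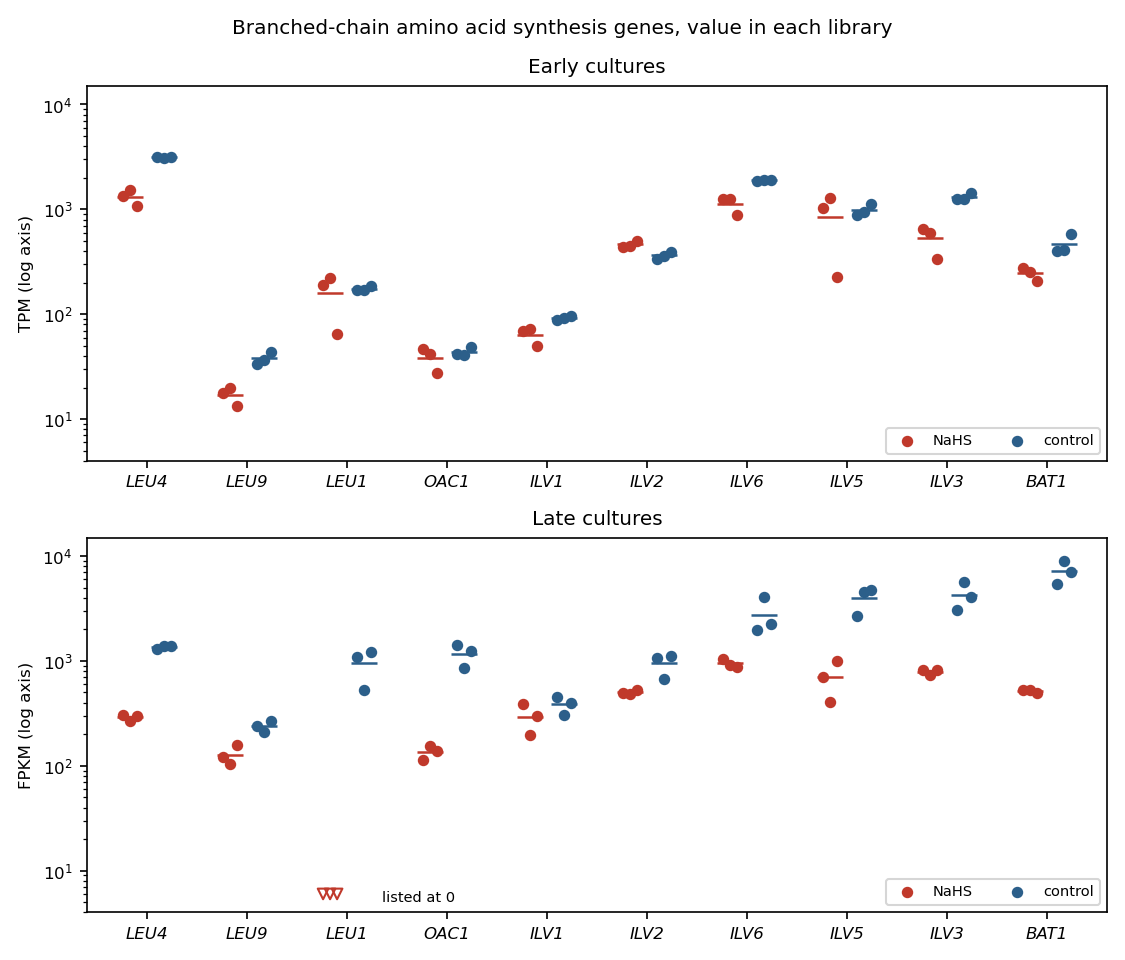
Value of each gene in each library, TPM for early cultures (top) and FPKM for late cultures (bottom) on log axes, with NaHS left of control and lines at the mean of 3. The third early NaHS library has the lowest NaHS point for 9 of 10 genes, and LEU1 is listed at 0 in the late NaHS libraries.

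The early comparison asks how the pathway stood when NaHS was given before 72 h. Of the 10 genes, 6 fell, 1 rose and 3 did not pass limma's test at an adjusted p of 0.05, where 28.5% of the 6124 genes tested fell and 10.1% rose. In 6 genes the NaHS values lay wholly below the controls and in 1 wholly above, against 41.3% and 16.8% of all genes, or 58.2% in either direction. The same call in either direction was made for 38.5% of all genes. The median log2 change of the 10 was -0.66, and that of all genes was -0.24. Changes are on the scale of log2(value + 1), NaHS minus control. Median-ratio scaling moved the median of all genes to -0.0098 and gave 1 rise and 5 falls among the 10, and upper-quartile scaling moved it to 0.081 and gave 1 rise and 4 falls. Over all genes the 616 risen and 1743 fallen became 1067 and 1122 with the first scaling and 1207 and 939 with the second.

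The third early NaHS library stood apart. The median gene differed by 0.38 and 0.39 on the log2 scale between it and the other early NaHS libraries, which differed by 0.13 from each other, and early controls differed by 0.12 to 0.15. Ribosomal RNA entries took 3.195% of it, against 1.70% and 1.44% of the other early NaHS libraries and 0.757% to 1.18% of the early controls. It held the lowest NaHS value of every one of the 10 genes except ILV2. The part of these differences in the results was not tested. Without this library the median log2 change of the 10 was -0.49 and the same 7 genes were called in the same directions, with smaller changes: -1.12 for LEU4, -0.97 for LEU9, -0.37 for ILV1, 0.28 for ILV2, -0.60 for ILV6, -1.07 for ILV3 and -0.79 for BAT1. Of all genes, 53.2% were called in that fit.

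LEU4 (YNL104C, chromosome XIV, 424895 to 426754) makes isopropylmalate and is the leucine-sensitive entry to the branch. It had 1349, 1531 and 1074 TPM in early NaHS libraries, against 3184, 3078 and 3140.1 TPM in early controls. The NaHS values were all under the lowest control, and LEU4 fell by 1.26 on the log2 scale (SE 0.15, limma adjusted p = 0.00159). Its paralog LEU9 (YOR108W, chromosome XV, 523027 to 524841) had 17.6, 19.9 and 13.4 TPM with NaHS, against 33.3, 36.4 and 44.0 TPM in controls. LEU9 also fell without overlap (log2 change of -1.12, SE 0.18, adjusted p = 0.005). The coding sequences of the pair are 76.8% identical with a longest shared run of 41 bases, and how the authors assigned reads shared by both is not given in the sources used here.

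LEU1 (YGL009C, chromosome VII, 476313 to 478652), the iron-sulfur isomerase that follows, had 192, 219.6 and 64.3 TPM in early NaHS libraries, against 170.3, 169 and 184 TPM in controls. Its NaHS values lay on both sides of the controls, and it did not pass (log2 change of -0.32, SE 0.45, adjusted p = 0.604). OAC1 (YKL120W, chromosome XI, 217344 to 218318), a mitochondrial carrier that exports isopropylmalate, had 46.2, 41.4 and 27.5 TPM with NaHS, against 41.4, 41.3 and 48.7 TPM in controls. It did not pass either (log2 change of -0.21, SE 0.21, adjusted p = 0.444). Without the third NaHS library the changes turned to 0.24 for LEU1 (adjusted p = 0.0573) and 0.0031 for OAC1 (adjusted p = 0.982). Upper-quartile scaling turned LEU1 to 0.038 and OAC1 to 0.14, and median-ratio scaling turned OAC1 to 0.036.

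ILV1 (YER086W, chromosome V, 328477 to 330207), the threonine deaminase that commits carbon to isoleucine, had 68.6, 72.7 and 49.96 TPM in early NaHS libraries, against 88.3, 91.5 and 95.8 TPM in controls. It fell by 0.54 on the log2 scale (SE 0.16, adjusted p = 0.0397), but the call ended when any 1 control or the first NaHS library was left out (adjusted p up to 0.121) and with median-ratio (0.18) and upper-quartile scaling (0.282).

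The subunits of acetolactate synthase lay on opposite sides of the controls in early cultures. ILV2 (YMR108W, chromosome XIII, 484084 to 486147), the catalytic subunit, had 434, 452 and 504 TPM with NaHS, against 339, 361 and 394 TPM in controls. It rose by 0.35 (SE 0.11, adjusted p = 0.049), lying just inside the threshold. The call ended when any 1 library other than the third NaHS library was left out (adjusted p up to 0.17), with a pseudocount of 0.1 (0.051) and with no filter on low values (0.0503). ILV6 (YCL009C, chromosome III, 104619 to 105548), the regulatory subunit that confers inhibition by valine, had 1248, 1247 and 893 TPM with NaHS, against 1854, 1915 and 1919 TPM in controls. It fell by 0.76 (SE 0.15, adjusted p = 0.0103), with no overlap between the groups.

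ILV5 (YLR355C, chromosome XII, 838066 to 839253), the reductoisomerase that also binds mitochondrial DNA, had 1024, 1282 and 226 TPM in early NaHS libraries, against 879, 939.7 and 1135 TPM in controls. Its groups overlapped and it did not pass (log2 change of -0.55, SE 0.63, adjusted p = 0.516). Without the third NaHS library its change was 0.23 (adjusted p = 0.236). ILV3 (YJR016C, chromosome X, 464451 to 466208), the iron-sulfur dehydratase of both routes, had 654, 597 and 339.7 TPM with NaHS, against 1259.6, 1246 and 1444 TPM in controls. ILV3 fell by 1.36 (SE 0.25, adjusted p = 0.00804), the largest early change of the 10 with all libraries, while LEU4 had the largest without the third NaHS library. BAT1 (YHR208W, chromosome VIII, 517532 to 518713) had 275, 255 and 206 TPM with NaHS, against 404, 407 and 587 TPM in controls, and fell by 0.91 (SE 0.19, adjusted p = 0.0122). With upper-quartile scaling BAT1 had a change of -0.55 and an adjusted p of 0.0515.

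LEU4, LEU9, ILV6 and ILV3 kept their early calls in all 14 alternatives tried, and BAT1 in 13 of 14. None of the 10 coding sequences has an intron in the R64 annotation or overlaps another annotated gene.

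**Figure D2:**
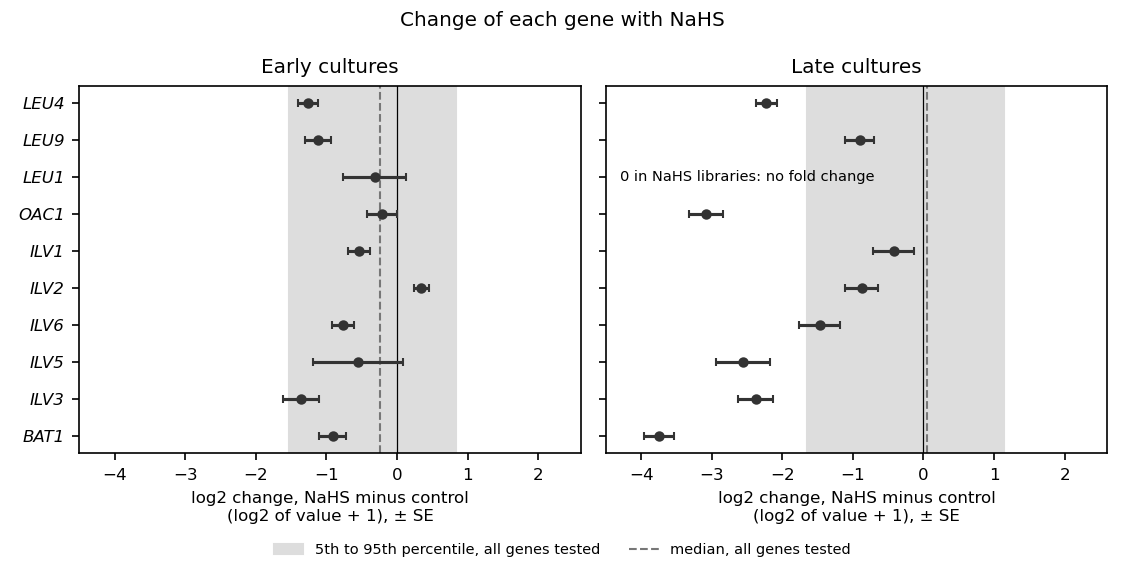
Log2 change of each gene, NaHS minus control, with SE from limma, in early cultures (left) and late cultures (right). The grey band spans the 5th to 95th percentile of all genes tested and the dashed line is their median. All 10 early points lie inside the band, while BAT1, OAC1, ILV5, ILV3 and LEU4 lie below it in late cultures.

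In late cultures, given NaHS after 72 h, 9 of the 10 genes had NaHS values wholly below the controls, or 8 of 9 without LEU1, which was listed at 0. In 38.6% of the 5344 genes tested the groups did not overlap, and in 19.8% of the 5344 genes tested the NaHS values lay wholly below, and in 18.8% wholly above. Limma called the same number, 9, lower at an adjusted p of 0.05 and 0 higher, where 9.99% of all genes were called lower and 5.28% higher, 15.3% in all, and nothing is read from this count because the genes were listed with these values known. Over the 9 genes without a 0 the median log2 change was -2.23, and over all genes it was 0.053. Leaving out 1 library gave 6 to 9 called lower and median changes between -2.27 and -2.15. In those fits 7.75% to 16.3% of all genes were called in either direction. Over all genes the 282 risen and 534 fallen became 414 and 495 with upper-quartile scaling, which called 7 of the 10 lower. Ribosomal RNA entries took 0.259% to 0.328% of late NaHS libraries, against 0.267%, 0.959% and 3.60% of late controls, and the second late control had the largest table total. The part of these differences was not tested.

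BAT1 had 531, 529 and 494 FPKM in late NaHS libraries, against 5459, 8933 and 6997 FPKM in late controls. The NaHS values lay close together and the lowest control was far above them, with a log2 change of -3.75 (SE 0.21). It ranked 457 of 5344 genes by its NaHS mean. OAC1 had 113, 154 and 139 FPKM with NaHS, against 1414, 855 and 1233 FPKM in controls, a log2 change of -3.08 (SE 0.24). The carrier thus had the second largest late change among the 9 pathway genes without a 0, though it had not passed in early cultures.

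LEU1 was listed at 0 in the 3 late NaHS libraries, against 1087, 531 and 1215 FPKM in late controls. A listed 0 can be a failed estimate. In all 6 late libraries 777 of 6007 protein-coding genes were listed at 0, 5 of 132 ribosomal protein genes among them. Of these 777, 271 averaged 10 TPM or more across the early libraries. The others did not reach that early level, so the count of 777 is no measure of failed estimates. Among the 5 ribosomal protein genes the lowest early average was 0. No fold change is given for LEU1. Listed zeros in the late NaHS libraries alone, with every control at 100 FPKM or more, occurred in 4 genes, LEU1, HMF1, AAC1 and GRE1, and the opposite pattern in 0 genes. With no such minimum, 36 genes were listed at 0 in the NaHS libraries alone and 25 in the controls alone.

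LEU4 had 307, 266 and 299 FPKM in late NaHS libraries, against 1311, 1393 and 1388 FPKM in controls, a log2 change of -2.23 (SE 0.15). Both groups were tight, and the SE was the smallest of the 9 late changes. LEU9 had 121, 105 and 157 FPKM with NaHS, against 239.7, 209 and 265 FPKM in controls, a change of -0.90 (SE 0.20). Its groups did not overlap either.

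ILV3 had 816, 737 and 822 FPKM in late NaHS libraries, against 3043, 5655 and 4042 FPKM in controls, a log2 change of -2.38 (SE 0.25). ILV5 had 699.6, 406 and 992 FPKM with NaHS, against 2687, 4530.5 and 4729.8 FPKM in controls, a change of -2.56 (SE 0.38). These shared steps of isoleucine and valine synthesis thus lay well apart between the groups, with ILV5 the more scattered under NaHS.

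ILV6 had 1047, 914 and 879.6 FPKM in late NaHS libraries, against 1952, 4051 and 2268 FPKM in controls, a log2 change of -1.47 (SE 0.29). ILV2 had 497, 483 and 531 FPKM with NaHS, against 1077, 666 and 1107 FPKM in controls, a change of -0.88 (SE 0.23). The ILV2 groups did not overlap, but their order was opposite to that in early cultures. ILV1 had 386, 196 and 301 FPKM with NaHS, against 457, 304 and 395 FPKM in controls, and was the only one of the 10 whose late groups overlapped (log2 change of -0.42, SE 0.29).

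Ratios within a library do not depend on how libraries are scaled. BAT2, the cytosolic aminotransferase of the same reaction, fell early with 355, 425 and 326 TPM in NaHS libraries, against 734, 655 and 641 TPM in controls (log2 change of -0.88, limma adjusted p = 0.00367). In late cultures BAT2 was higher with NaHS, at 1853, 1624 and 1241 FPKM, against 257, 294 and 264 FPKM in controls (log2 change of 2.51). This late change is given as a description with no p, because it was known when the lists were written. The ratio of BAT1 to BAT2 was 0.29, 0.33 and 0.40 in late NaHS libraries, against 21.3, 30.4 and 26.6 in late controls. BAT2 was thus the more abundant of the pair in each late NaHS library and BAT1 in each late control. The early ratio overlapped between the groups, at 0.77, 0.60 and 0.63 with NaHS, against 0.55, 0.62 and 0.92 in controls.

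The ratio of LEU4 to LEU9 was 2.53, 2.54 and 1.90 in late NaHS libraries, against 5.47, 6.68 and 5.24 in late controls, with no overlap. The early ratios overlapped, at 76.5 to 79.9 with NaHS, against 71.4 to 95.6 in controls. LEU4 was thus the higher paralog in all 12 libraries. The ratio of ILV6 to ILV2, added after the values were seen, was 2.87, 2.76 and 1.77 in early NaHS libraries, against 5.47, 5.30 and 4.87 in early controls. It overlapped in late cultures, at 1.66 to 2.10 with NaHS, against 1.81, 6.08 and 2.05 in controls, where the second control alone was high. The smallest p of an exact permutation test with 3 libraries a group is 0.1, so these ratios carry no test.

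**Figure D3:**
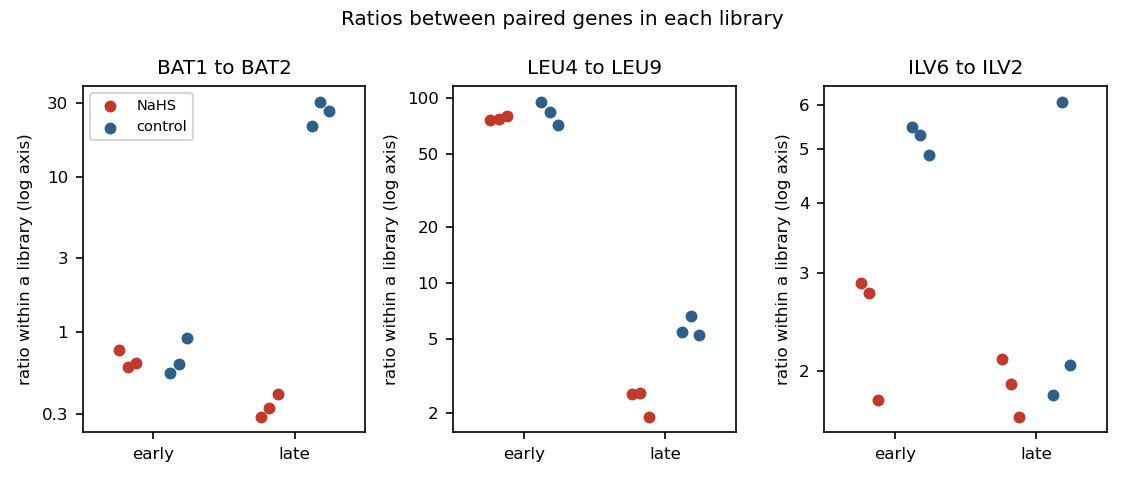
Ratio of the paired genes in each library on log axes, NaHS left of control, for early and late cultures. The late BAT1 to BAT2 ratios lie below 1 with NaHS and above 20 in controls, the late LEU4 to LEU9 ratios do not overlap, and the early ILV6 to ILV2 ratios do not overlap.

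Shares within the pathway were set side by side as well. Of the summed level of the 9 genes other than LEU1, BAT1 held 10.7% to 13.95% in late NaHS libraries, against 30.9% to 33.6% in late controls. ILV6 held 19.1% to 24.1% in late NaHS libraries, against 10.1% to 15.2% in late controls, and ILV2 held 11.0% to 12.7% with NaHS, against 2.50% to 6.10% in controls. In early cultures LEU4 held 26.4% to 32.2% with NaHS, against 35.7% to 39.4% in controls, and ILV2 held 8.22% to 15.1% with NaHS, against 4.19% to 4.47% in controls. None of these shares overlapped between its groups. A lower share of BAT1 means higher shares of other genes, and ILV6 and ILV2 themselves had late log2 changes of -1.47 and -0.88. Among the shares not printed, those of LEU9 and ILV1 at both stages and of OAC1 and ILV3 early did not overlap either. The late shares of LEU4, OAC1, ILV5 and ILV3 and the early shares of ILV6, ILV5 and BAT1 did overlap.

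Other genes of the pathway and its surroundings were counted from role lists that were not picked by how the genes moved, though written with earlier results of these data known, the late rise of BAT2 among them. Their counts stand beside 28.5% of all genes that fell and 10.1% that rose early, and 9.99% that fell and 5.28% that rose late. LEU3, the Leu3 regulator gene, was low in both tables and did not pass, at 4.27 to 4.83 TPM in early NaHS libraries, against 3.81 to 4.51 TPM in controls (limma adjusted p = 0.653), and at 8.48 to 9.53 FPKM in late NaHS libraries, against 4.03 to 6.87 FPKM in controls (log2 change of 0.61, adjusted p = 0.116). GCN4 rose early, with 618, 571 and 854 TPM in NaHS libraries, against 394, 387 and 449 TPM in controls (log2 change of 0.71, adjusted p = 0.0201), a call that ended without the first or the second control (up to 0.0774). In late cultures GCN4 had 1523, 1453 and 2025 FPKM with NaHS, against 1743, 1508 and 1610 FPKM in controls, so the groups overlapped (adjusted p = 0.935 for a log2 change of 0.028). Gcn4 is known to be controlled mainly at translation, which RNA does not show. Of the 7 tested regulators of amino acid and nitrogen control, 3 rose and 1 fell early. After GCN4 the largest rise was that of PUT3 (log2 change of 0.56, limma adjusted p = 0.0246). PUT3 was low, at 4.39 to 5.96 TPM with NaHS, against 3.03 to 3.3 TPM in controls. Its call held in 8 of the 13 alternatives that gave a value. The fall was that of TUP1, a corepressor (log2 change of -0.74, adjusted p = 0.0321), a call that ended with median-ratio and upper-quartile scaling and without any 1 control or the first NaHS library (up to 0.1003). None of 8 passed limma late, with 2 at an unadjusted p under 0.05.

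BAT2, CHA1, MMF1, ECM31 and PAN6 act beside the pathway, and 2 of the 5 fell early, while 1 rose and 2 fell late. The late rise was that of BAT2, known when the list was written, so nothing is read from it. CHA1, the deaminase that breaks down serine and threonine, fell late with 93.2, 65.5 and 65.7 FPKM in NaHS libraries, against 214, 152 and 199 FPKM in controls (log2 change of -1.33, limma adjusted p = 0.0107). MMF1, a mitochondrial protein needed for isoleucine synthesis and for keeping mitochondrial DNA, had 66.3, 76.1 and 2.48 FPKM with NaHS, against 535, 892 and 685 FPKM in controls. It fell (log2 change of -4.72, adjusted p = 0.0377), a call that held in 8 of 14 alternatives. The call ended without any 1 library other than the third NaHS library (up to 0.103), whose absence left a change of -3.26. ECM31, the first enzyme from ketoisovalerate to pantothenate, fell early (log2 change of -0.83, adjusted p = 0.0148), a call that ended without control 2 or 3 (up to 0.0606).

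Of 8 permeases that carry branched-chain amino acids or peptides, 3 fell and 5 did not pass at each stage (37.5%, where 28.5% of all genes fell early and 9.99% late). BAP2, a main branched-chain permease, fell late with 535, 669 and 752 FPKM in NaHS libraries, against 2446, 2212 and 1917 FPKM in controls (log2 change of -1.75, limma adjusted p = 0.00216), and it holds the Leu3 core as well. AGP1, a broad permease, was called lower late (log2 change of -1.01, adjusted p = 0.0406), a call that held in 9 of 14 alternatives. The AGP1 call ended without control 2 or 3 or NaHS library 2 or 3 (up to 0.127). GAP1, the general permease, and AGP3 fell early (log2 changes of -3.39 and -2.42, adjusted p = 0.000765 and 0.00245). Of MAE1 and GDH1, listed as other targets of Leu3, 0 passed early, with 0 at an unadjusted p under 0.05, and 1 passed late. MAE1, the mitochondrial malic enzyme that makes pyruvate, fell late with 1265, 944 and 1218 FPKM with NaHS, against 3351, 4377 and 3608 FPKM in controls (adjusted p = 0.0023). MAE1 holds 0 Leu3 cores within 500 bases of its start codon. GDH1 holds 1 and did not pass late (log2 change of -0.28, limma adjusted p = 0.372). LEU5, a mitochondrial carrier linked to coenzyme A, rose late by 0.94 (adjusted p = 0.0147), a call that held in 10 of 14 alternatives. The LEU5 call ended without control 3 or NaHS library 2 or 3 (up to 0.0673).

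Among 39 genes for other amino acids, most of them under general control, 5 rose, 11 fell and 23 did not pass early, and 1 rose, 15 fell and 23 did not pass late. The early shares, 28.2% fallen and 12.8% risen, were close to the 28.5% and 10.1% over all genes, and the late fallen share was 38.5%, where 9.99% of all genes fell. Their median log2 change was -0.14 early and -0.72 late. ARG4, the last step to arginine, fell late with 117, 82.0 and 116 FPKM in NaHS libraries, against 681, 594 and 690.2 FPKM in controls (log2 change of -2.65, limma adjusted p = 0.000472), and so did SER1, of serine synthesis (log2 change of -2.47, adjusted p = 0.000348). The homocitrate synthase LYS20 was the 1 late rise, at 1.53 on the log2 scale (adjusted p = 0.0023). CPA1, of carbamoyl phosphate synthesis, and the asparagine synthetase ASN1 rose early (log2 changes of 1.16 and 1.07), while LYS9 and ARG3, of lysine and arginine synthesis, fell (log2 changes of -1.39 and -1.25).

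LEU1 and ILV3 carry iron-sulfur clusters. Of 16 other genes for iron-sulfur proteins, 1 rose, 6 fell and 9 did not pass early, and 4 fell and 12 did not pass late. The fallen shares were 37.5% early and 25.0% late, where 28.5% and 9.99% of all genes fell. SDH2, of succinate dehydrogenase, and MET5, of sulfite reductase, fell late (log2 changes of -1.85 and -1.75, limma adjusted p = 0.00281 and 0.0183). The call of MET5 held in 10 of 14 alternatives and ended without control 3 or NaHS library 1 or 2 (up to 0.0691). BIO2, the biotin synthase, and the aconitase ACO1 fell early (log2 changes of -3.42 and -2.67), and RIP1 of the respiratory chain rose by 0.44, a call that ended without control 1 or 2 (up to 0.0713).

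The keto acids of the pathway are also substrates of breakdown. Of 13 decarboxylases and alcohol dehydrogenases, 1 rose, 8 fell (61.5%, where 28.5% of all genes fell) and 4 did not pass early, led downward by ADH2 and PDC6 at -4.62 and -1.97 on the log2 scale. SFA1 was the 1 that rose early (log2 change of 0.36, limma adjusted p = 0.0226), a call that held in 8 of 14 alternatives. Of 12 tested late, 1 rose, 1 fell and 10 did not pass. The riser was ARO10, a decarboxylase with 49.1, 18.4 and 18.4 FPKM in late NaHS libraries and listed at 0 in the 3 late controls. Its call rests on those listed zeros, which can be failed estimates, and 0 others of the list rose. ADH5 was called lower late (log2 change of -1.12, limma adjusted p = 0.0355), a call that held in 9 of 14 alternatives. The ADH5 call ended without control 3 or any 1 NaHS library (up to 0.114). Of 11 enzymes that use thiamine pyrophosphate, as Ilv2 does, 7 fell (63.6%, where 28.5% of all genes fell) and 4 did not pass early. PDC1, PDC5, PDC6, ARO10 and THI3 are in both lists, so the early falls of PDC1, PDC5, PDC6 and ARO10 are counted in both shares. Of 9 tested late 1 rose, which was again ARO10, 2 fell (22.2%, where 9.99% of all genes fell) and 6 did not pass. The transketolase TKL2 was the lowest, at -4.99 early and -3.32 late on the log2 scale.

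**Figure D4:**
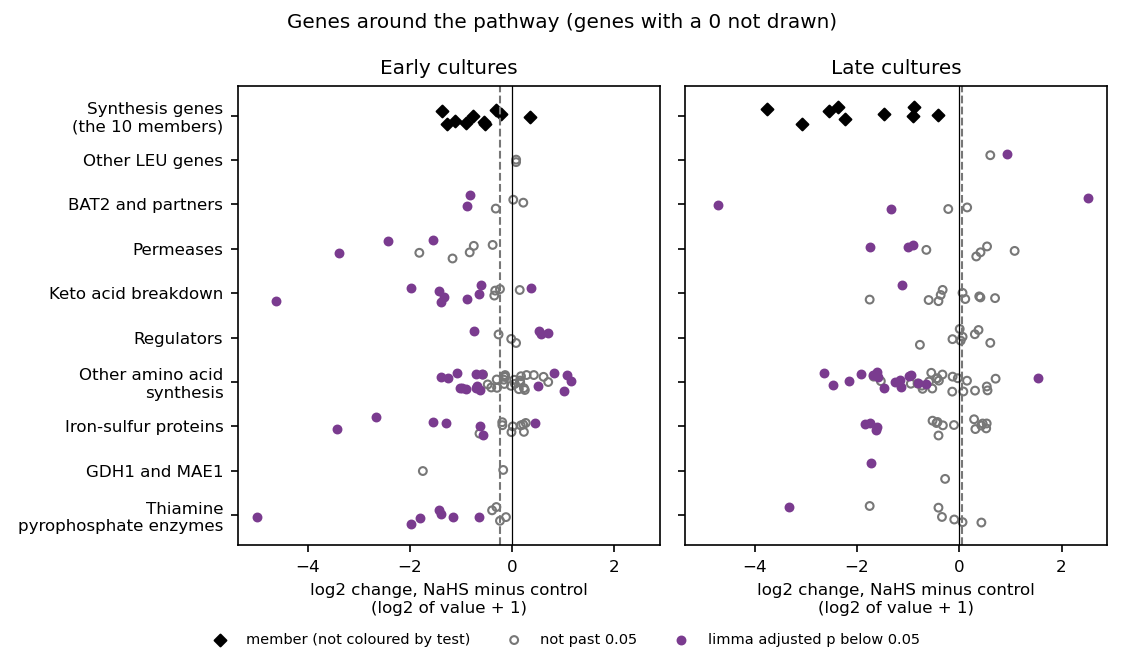
Log2 change of each gene, NaHS minus control, for the 10 pathway genes (diamonds) and the role lists (circles, filled where limma's adjusted p was below 0.05), early on the left and late on the right. Genes with a 0 in a library are not drawn and the dashed line is the median of all genes tested; the late BAT2 point at 2.51 is the highest of all points drawn.

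Likeness to the pathway was measured as Pearson's r over the 12 libraries between each gene and the mean of the 9 members without a 0, each centred on the controls of its table. The members are part of that mean, so their own r is not given. Among 3182 genes ranked, the 5 genes outside the list with the highest r were SNZ3 (0.98), TCM62 (0.97), SDH2 (0.97), SNZ2 (0.97) and MET13 (0.97). SNZ2 and SNZ3, of vitamin B6 synthesis, are near-identical copies, so their values are uncertain. MET13, a methylenetetrahydrofolate reductase, had log2 changes of -1.16 early and -3.37 late. The 12 points share libraries and groups, so r here is mainly a measure of the group differences.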

How the data were processed

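RNA-seq was done on 12 libraries in 4 groups of 3. Per the labels' protocols, reads were trimmed with SeqPrep and Sickle and aligned with TopHat, and the submitters' processing notes name Bowtie 0.12.2 and build R64. The quantifier is not given in the sources used here. The deposited early table holds TPM, a unit read from its column totals of 998109 to 998610, and the deposited late table holds FPKM per the file headers. Read counts were not analysed here, so depth is unknown and no counting interval is given. The design had named a count test first, and limma on log2 values for normalized tables was used.

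Entries that name no gene (319 early, 429 late) were left out. Genes with a mean of at least 1 were fitted per stage with limma 3.58.1 in R 4.3.3 on log2(value + 1), with a trend, 2-sided, and Benjamini-Hochberg adjustment over all genes at 0.05. The members and lists were chosen with earlier results of these data known. Of each list, up to 2 called genes with the largest and 2 with the smallest change are named, with LEU2, LEU3, BAT2 and GCN4 always. Motifs and coding sequences were read from the R64 reference, the build of the files, and coding pairs were aligned with Biopython 1.88. The fit was tested on simulated data, with independent normal noise for each gene and only the genes counted below changed. In the real early data 38.5% of genes were called and the third NaHS library stood apart. Recovery and false calls in the real data may therefore differ from these counts. Of 100 genes changed by 1 on the log2 scale it recovered 60 early and 31 late. Of 100 changed by 2 it recovered 88 early and 82 late. False calls were 7 early and 10 late. A gene that did not pass may thus still have changed, most of all in late cultures. Alternatives were other pseudocounts, filters and scalings, a replicate block and each library left out.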

Additional observations from a re-analysis of the deposited data

Results flagged for a closer look

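In ILV2, the catalytic subunit of acetolactate synthase, every NaHS library lay above every control in early cultures (log2 change of 0.35) and below every control in late cultures (log2 change of -0.88). In BAT2, the cytosolic aminotransferase, the order was the other way, below in early cultures (log2 change of -0.88) and above in late cultures (log2 change of 2.51). The early call of ILV2 held in 6 of 14 alternatives. Groups without overlap, in either direction, were seen for 58.2% of all genes early and 38.6% late. The difference between the stages was not tested for either gene.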

How the results depend on the processing

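Each comparison was repeated under 14 alternatives. The 10 pathway genes gave 5 to 7 early and 6 to 9 late calls. Over the same alternatives 22.7% to 53.2% of all genes were called early and 7.75% to 20.4% late. The late changes of the pathway genes kept their sign in every alternative that gave a value. Early changes that turned sign had not passed the test, and they were LEU1 (0.038 with upper-quartile scaling, -0.64 to 0.24 over the libraries left out), OAC1 (0.036 when scaled by median ratios, 0.14 when scaled by upper quartiles, -0.36 to 0.0031 over the libraries left out) and ILV5 (-1.02 to 0.23 over the libraries left out), each positive without the third NaHS library. GCN4 in late cultures ranged between -0.12 and 0.12 over the libraries left out, negative without the second control (-0.023) or the third NaHS library. Leaving out 1 library gave between 1389 and 3253 called genes early, against 2359 with all, and between 413 and 871 late, against 816. The early counts were 1423, 1389 and 1489 without control 1, 2 or 3, and the late counts were 413 without control 3 and 448, 448 and 446 without NaHS library 1, 2 or 3. The replicate block gave 1860 early and 487 late calls over all genes, with 0 risen and 5 fallen pathway genes early, where ILV1 (adjusted p = 0.0758) and ILV2 (adjusted p = 0.0769) were no longer called, and 7 fallen late, where ILV2 and ILV6 were not. Deviations of same-numbered libraries had r of -0.035, -0.011 and -0.028 early, and -0.11, 0.086 and 0.041 late. Between libraries of unlike number r lay between -0.044 and 0.076 early and between -0.20 and 0.19 late. With 3 libraries a group, these values cannot settle whether the numbers pair the libraries. The within-library ratios kept their direction with a pseudocount of 1. No cause of these shifts was tested. The unknown depth limits low genes such as LEU3 and the reading of listed zeros.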

Other observations

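HIS3, which BY4742 carries as a partial deletion and which belongs to histidine synthesis, was measured in all 12 libraries. It had 314.6, 304 and 316 TPM in early NaHS libraries, against 301, 343 and 345 TPM in early controls (limma adjusted p = 0.546). In late cultures it had 119.6, 115 and 130.3 FPKM with NaHS, against 378, 522 and 385 FPKM in controls, and fell by 1.79 on the log2 scale (adjusted p = 0.00169).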
